A study of Mus musculus with 6 samples.

Results

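The vascular endothelial growth factor (VEGF) family was followed in cultured mouse fibroblasts by 12 array probes, which stood for 7 of 8 genes looked for. The genes were the ligands Vegfa, Vegfb, Vegfc and Pgf, the receptor kinases Flt1 and Kdr, and the co-receptors Nrp1 and Nrp2. A probe counted as a member when the platform's annotation gave it 1 of these symbols, out of 45281 probes on each array. The 7 genes are part of 10585 named genes measured. The annotation used here covers the 20308 probes that were detected on at least 1 array, so a member probe below that limit on all arrays could not be named, and Pgf had no named probe. The family was looked at because Vegfa stood out in the comparison of creatine (Cr) with untreated cells. Its difference between the groups is therefore given as a description, and no support is drawn from it.

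The cells were 3T3-CrT, a mouse 3T3 Tet Off fibroblast line that stably expresses a rabbit creatine transporter (CrT) cDNA. Untreated controls (n = 3 wells) and cells kept for 3 h in growth medium with 5 mM creatine monohydrate (n = 3 wells) both carried the transgene and both grew in high-glucose medium with serum and selection antibiotics. It is a transfected line kept under selection, so these arrays hold no comparison with cells that lack the transporter. The replicates were wells, so a p here reflects only how far wells scattered, which may be technical.

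VEGF ligands are secreted dimers that act mainly on the endothelial cells lining blood and lymph vessels. Vegfa drives the growth and permeability of blood vessels and is made by many cell types, fibroblasts included, above all when oxygen is low or growth factors are present. Kdr (VEGF receptor 2) passes on most of its signal, whereas Flt1 (VEGF receptor 1) binds it tightly, signals weakly and also occurs as a soluble trap. Vegfb and Pgf bind Flt1, and Vegfc acts chiefly on lymphatic vessels through Flt4. Nrp1 and Nrp2 have no kinase domain, and they hold VEGF ligands for the kinases and serve class 3 semaphorins as well.

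The 250 bases before the annotated starts of Vegfa and of Flt1 are shown because these are the ligand with the most negative log2 fold change under Cr and the receptor whose Cr values all lay above the untreated values. The sequences are from RefSeq, build GRCm38.p6, and all 8 genes had an entry in that table. Capitals mark the GC box, GGGCGG or CCGCCC on the other strand, to which Sp1-type factors bind, and the cAMP response element TGACGTCA, which reads the same on both strands.
Vegfa, chr17:46032378-46032627, minus strand: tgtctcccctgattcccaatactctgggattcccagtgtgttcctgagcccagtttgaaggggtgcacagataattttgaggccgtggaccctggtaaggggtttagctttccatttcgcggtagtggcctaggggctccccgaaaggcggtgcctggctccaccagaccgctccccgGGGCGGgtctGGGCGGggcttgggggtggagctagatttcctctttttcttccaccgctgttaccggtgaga
Flt1, chr5:147726012-147726261, minus strand: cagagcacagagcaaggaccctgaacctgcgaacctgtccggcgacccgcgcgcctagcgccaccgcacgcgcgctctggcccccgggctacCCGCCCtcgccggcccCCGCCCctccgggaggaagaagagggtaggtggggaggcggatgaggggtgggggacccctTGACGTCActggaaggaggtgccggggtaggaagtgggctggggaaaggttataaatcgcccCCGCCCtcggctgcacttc
The Vegfa window held 2 GC boxes and the Flt1 window 3 GC boxes and the response element. A GC box occurred in 9 of 10 member windows, against 32.7% of 32851 mouse windows of the same length. These include the window of at least 1 start of all 8 genes, and 1 Pgf window held none. The member windows were 59.2% to 76.4% G and C beside a median of 52.4% over all windows. The response element TGACGTCA occurred in 1.55% of all windows and in the family at Flt1 alone. The core of the hypoxia response element was searched as ACGTG and GCGTG on both strands. Neither occurred in the printed Vegfa window. Each occurred once before a second annotated Vegfa start on the same strand, which lies downstream of the printed one. Sequence further than 250 bases before a start was not searched, so the lack of a match does not show that Vegfa lacks the element. In the family ACGTG occurred in 1 of 10 windows and GCGTG in 7, which belong to 7 of the 8 genes and include the printed Flt1 window. Among all windows 16.6% held ACGTG and 28.2% held GCGTG. The motif of Egr factors, GCGNGGGCG, which can share letters with a GC box, occurred at Flt1, Vegfb and Vegfc, and in 4.7% of all windows. These matches describe letters only and say nothing of binding.

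Signals are in arbitrary units with no background subtracted, and normalized values are on the generalized log2 scale of the vsn model, which shrinks the changes of dim probes. Between 16396 and 17700 probes were detected per array, where detection means a p of 0.05 or less against the negative control probes of that array. The signal of untreated replicate 3 was the lowest of the 3 untreated arrays on both Vegfa probes, the Vegfb probe, the Vegfc probe and all 3 Nrp1 probes, and array weights in limma were lowest for untreated replicate 1, at 0.498. The summed signal of 10 measured fibroblast markers out of 12 lay between 38893 and 53543 in untreated controls and between 45680 and 49618 with Cr, and 9 of the 10 were detected on all arrays. Of 13 endothelial markers 4 had a named probe that passed, none of them detected on all arrays, with sums of 619 to 699 and 633 to 730, and the defining genes Pecam1, Cdh5, Tie1 and Vwf had none. Of 10 macrophage and 10 epithelial markers 4 each passed, with sums of 1295 to 1602 and 903 to 1113 in untreated controls and 1325 to 1478 and 1023 to 1038 with Cr. In both of these lists 2 of the 4 were detected on all arrays. The median signal over all probes was 152.16 to 166.89 per array. All of these sums therefore include background, and they do not measure marker content. In such bulk samples fewer cells that express a gene and less RNA per cell cannot be told apart.

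Vegfa was lower in all 3 wells given Cr than in any untreated well, on both of its probes. Probe ILMN_2484527 had signals of 5293, 4811 and 4099 in untreated controls and 2735, 3486 and 3081 after Cr, or 4734 ± 600.5 against 3101 ± 375.9 (SD, n = 3 each). The highest Cr signal, that of replicate 2, was below the lowest untreated signal, that of replicate 3. After normalization the untreated arrays stood at 12.20, 12.19 and 12.23 and the Cr arrays at 11.43, 11.72 and 11.50. The untreated arrays thus lay within 0.05 of each other on the log2 scale, and a gap of 0.47 separated the nearest arrays of the groups. This gave a log2 fold change of -0.66 (standard error 0.09), which is 63.5% of untreated (95% confidence interval 55.6 to 72.4).

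The other Vegfa probe, ILMN_3121255, is annotated to another transcript, and both transcripts are among the 10 that RefSeq lists for the gene. Its signals were 1498, 1552 and 1261 in untreated controls and 923.4, 1098 and 1010 after Cr. Here too every Cr array lay below every untreated array, and replicate 2 was again the highest with Cr. The normalized values were 10.35, 10.52 and 10.48 in untreated controls and 9.82, 10.01 and 9.85 with Cr, so that the nearest arrays were 0.34 apart. Its log2 fold change was -0.56 (standard error 0.09), or 67.9% of untreated (95% confidence interval 59.7 to 77.2). Both probes were hybridized with the same RNA on the same arrays, so their likeness is no replication. The log2 difference between them within an array was 1.85, 1.67 and 1.75 in untreated controls and 1.61, 1.71 and 1.65 after Cr, ranges that overlap. In the deposited processed values, which are scaled separately, probe ILMN_2484527 read 12.20, 12.21 and 12.25 in untreated controls and 11.45, 11.73 and 11.52 with Cr.

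**Figure D1:**
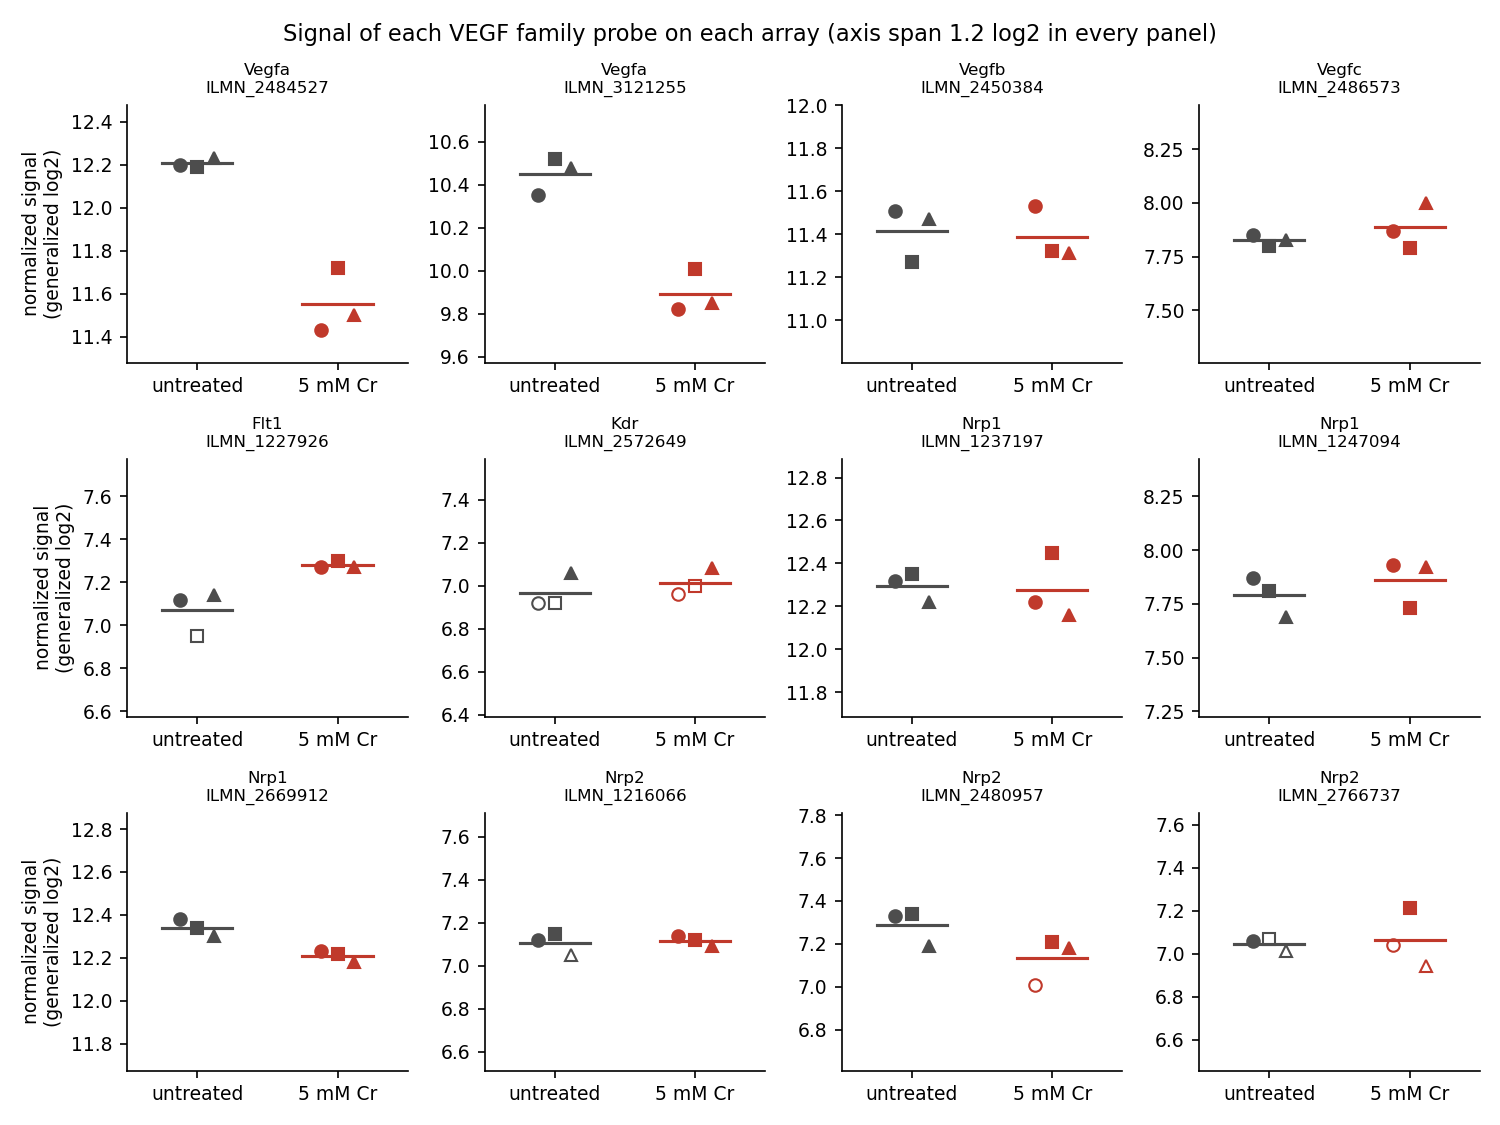
Normalized signal (generalized log2) of each of the 12 VEGF family probes on the 3 untreated arrays (grey) and the 3 arrays of cells given 5 mM Cr (red). Circles, squares and triangles are replicates 1, 2 and 3, open symbols are arrays on which the probe was not detected, and bars are group means. On both Vegfa probes the groups are apart by more than their own width, and the other panels show smaller shifts.

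Over all tested probes 6 of 20308 passed an adjusted p of 0.05 in limma, or 0.0295%, 5 with lower values under Cr (0.0246%) and 1 with higher (0.00492%). Of the 12 member probes the 2 of Vegfa did, or 16.7%, both lower. Nothing is read from that share, since Vegfa was picked from the same comparison. The call itself was lost in several fits. With neqc, which removes more background, both probes had similar fold changes (-0.67 and -0.61) but an adjusted p of 0.529 and 0.59, and with any array other than untreated replicate 1 left out no member or 1 member passed. Across these left-out fits the log2 fold change of ILMN_2484527 stayed between -0.74 and -0.60 and that of ILMN_3121255 between -0.62 and -0.52.

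The other measured ligands had no difference beyond the spread between wells. Vegfb, a ligand of Flt1, had signals of 3295, 2563 and 2440 in untreated controls and 2925, 2663 and 2703 with Cr on probe ILMN_2450384, detected on all arrays. The groups overlapped, and the highest and the lowest signal were both those of untreated arrays. On the log2 scale Vegfb differed by -0.03 (standard error 0.09; limma, adjusted p = 0.996), with a 95% confidence interval of 85.5% to 113% of untreated. Vegfc, the lymphatic ligand, had signals of 290.6, 277 and 250.5 in untreated controls and 269.3, 266.5 and 310.7 with Cr on probe ILMN_2486573. Its Cr replicate 3 was the highest array, and the other Cr arrays lay among the untreated ones. For Vegfc the difference was 0.06 (standard error 0.08; adjusted p = 0.994, limma), and the interval ran from 92.3% to 118% of untreated. Both intervals lie above the estimates of both Vegfa probes, but the difference between Vegfa and its relatives was not tested, because Vegfa was chosen for its change. Vegfd, the remaining ligand of lymphatic vessels, was named after its value had been seen. It was detected on all arrays and differed by 0.04 on the log2 scale (adjusted p = 0.995, limma).

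The receptor kinases were near the detection limit, and detection differed between arrays. Flt1 was detected on 2 of the 3 untreated arrays and on all 3 Cr arrays. Its signals were 185.7, 174.6 and 177 in untreated controls and 190.8, 200.1 and 202.2 with Cr, and every Cr array was above every untreated array, by a gap of 0.13 on the log2 scale. The difference was 0.21 on that scale (standard error 0.08), or 116% of untreated (95% confidence interval 102 to 131). In limma this gave an unadjusted p of 0.0229 and an adjusted p of 0.948. Groups did not overlap for 10.7% of all tested probes, and for 5.15% Cr was the lower group. In the family they did not overlap for 4 of 12 probes, the 2 of Vegfa and 1 of Nrp1 with Cr lower and that of Flt1 with Cr higher. The size of the Flt1 difference depended on the background correction, since its log2 fold change was 0.51 with neqc (adjusted p = 0.733). Without untreated replicate 2, the array on which Flt1 was not detected, the log2 fold change was at its lowest, 0.15.

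Kdr was detected on 1 array of each group, replicate 3 in both. Its signals were 164.4, 171.6 and 171 in untreated controls and 160.5, 168.7 and 181.8 with Cr on probe ILMN_2572649, with groups that overlap. Their means differed by 0.04 on the log2 scale (standard error 0.08; adjusted p = 0.995, limma), and no difference was detectable at this signal. That probe is annotated to a cDNA outside the RefSeq transcripts of Kdr. Eng, a co-receptor for TGF-beta ligands and an endothelial marker, was detected on 1 untreated array and on 3 Cr arrays and differed by 0.19 on the log2 scale (standard error 0.08; adjusted p = 0.962, limma), with groups that did not overlap. Esam, an endothelial adhesion molecule, was detected on no untreated array and on 1 Cr array, so no fold is given. The other measured endothelial markers, named after their values had been seen, were Robo4, detected on 1 untreated array and no Cr array, and Egfl7, detected on no untreated array and 1 Cr array. Of the 4 markers, Eng and Esam had log2 differences above 0 and Robo4 and Egfl7 below 0. Whether these few endothelial transcripts have a part in the Flt1 value was not tested.

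Nrp1 was detected on all arrays by all 3 of its probes. Probe ILMN_2669912 had signals of 6020, 5346 and 4275 in untreated controls and 4737, 4929 and 4908 with Cr. After normalization its untreated arrays stood at 12.38, 12.34 and 12.30 and its Cr arrays at 12.23, 12.22 and 12.18, groups that did not overlap but were only 0.06 apart. They differed by -0.13 (standard error 0.08; adjusted p = 0.986, limma), or 91.5% of untreated (95% confidence interval 81.6 to 103). Probe ILMN_1237197 is annotated to the same transcript, and its groups overlapped. Its signals were 5755, 5369 and 4058 in untreated controls and 4711, 5774 and 4840 with Cr, with the 2 highest arrays in different groups. Its log2 difference was -0.02 (standard error 0.09; adjusted p = 0.997, limma). The dim probe ILMN_1247094, annotated to a cDNA outside the RefSeq transcripts of Nrp1, had 0.07 (standard error 0.09) with signals of 233.5 to 293.8 and 257.3 to 295.9. The Nrp1 probes thus share no direction, and none passed.

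Nrp2 had 3 probes, and none of them was detected on all arrays. On probe ILMN_2480957 the signals were 210.6, 215 and 181.1 in untreated controls and 164.8, 189.3 and 192.4 with Cr, detected on 3 and on 2 arrays. The Cr arrays were the lower ones apart from a small overlap at untreated replicate 3. On the log2 scale the difference was -0.16 (standard error 0.09; adjusted p = 0.986, limma), and with neqc it was -0.35 (adjusted p = 0.904). Probe ILMN_2766737, annotated to the same transcript, had 0.02 (standard error 0.09) and was detected on 1 array of each group. Probe ILMN_1216066, annotated to a cDNA outside the RefSeq transcripts, had 0.01 (standard error 0.08), with signals of 170.2 to 194 and 177.5 to 183.3. Of the 10 member probes outside Vegfa, 4 had log2 fold changes below 0 and 6 above 0, and their adjusted p lay between 0.948 and 0.997.

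**Figure D2:**
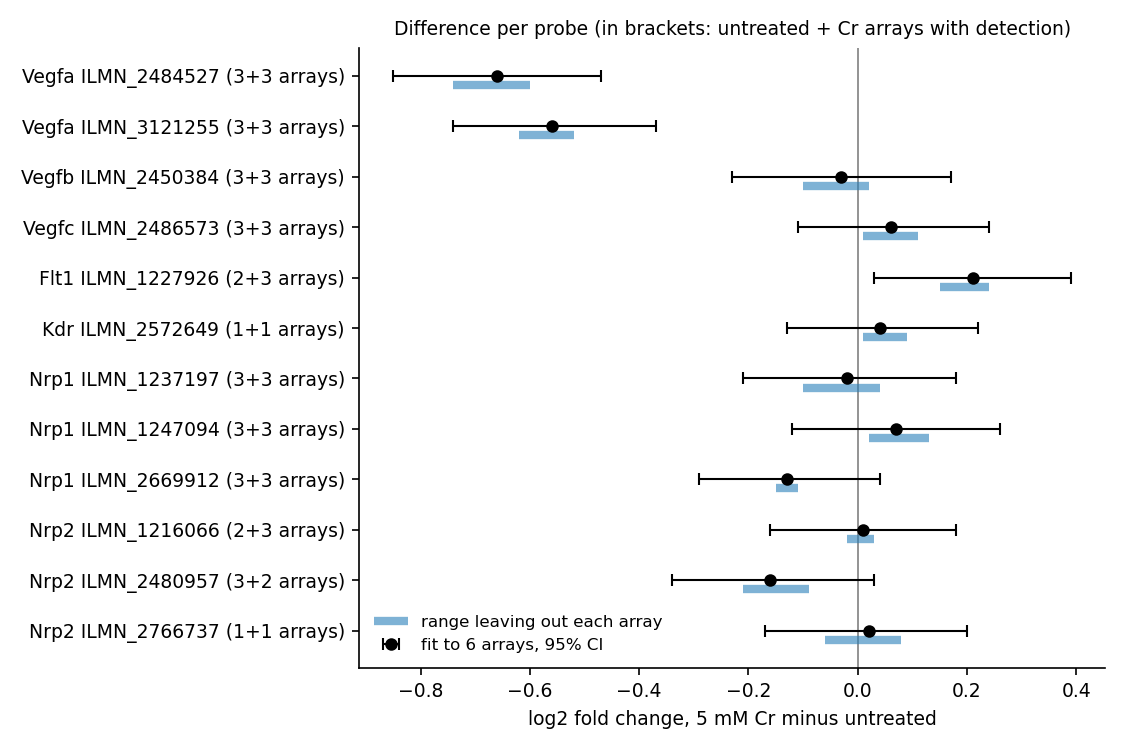
Log2 fold change (5 mM Cr minus untreated, n = 3 arrays each) of each VEGF family probe with its 95% confidence interval from limma (black) and the range of the estimate when each of the 6 arrays was left out (blue). Brackets give the number of untreated and of Cr arrays on which the probe was detected. The intervals of both Vegfa probes end at -0.47 and -0.37, that of Flt1 starts at 0.03, and the other 9 hold 0.

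The genes whose pattern over the 6 arrays was most like that of Vegfa probe ILMN_2484527 were ranked by the root-mean-square difference of log2 values, after each probe had been centred on its own mean. The nearest were Sema7a, a membrane-anchored semaphorin, at 0.095, the early response gene Ier3 at 0.099, the cytokine gene Lif at 0.103, the scaffold protein gene Grasp at 0.116, the transcription factor gene Egr3 at 0.117 and the connexin gene Gjb2 at 0.124. The median over 16913 other named probes was 0.354, and the other Vegfa probe was at 0.076. All of these genes had lower values with Cr, with log2 fold changes from -0.62 for Sema7a to -0.48 for Lif and Grasp. Of the 6 only Sema7a passed (limma, adjusted p = 0.0255), and the adjusted p of the others lay between 0.0515 for Egr3 and 0.191 for Lif. Each gene is given by its probe nearest to Vegfa, and its other probes are not described. A probe can be near Vegfa only if it differs between the groups in the same way, so the measure partly repeats the comparison. Within the Cr group, replicate 2 was the least lowered array for both Vegfa probes (-0.16 on each, relative to the mean of 6 arrays), and also for Sema7a, Ier3, Lif and Grasp, at -0.20, -0.18, -0.05 and -0.15. For Egr3 and Gjb2 the least lowered was replicate 3, at -0.16 and -0.18. The ranking used all 6 arrays, so likeness among the Cr arrays was part of the choice of these genes. No support is drawn from it.

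**Figure D3:**
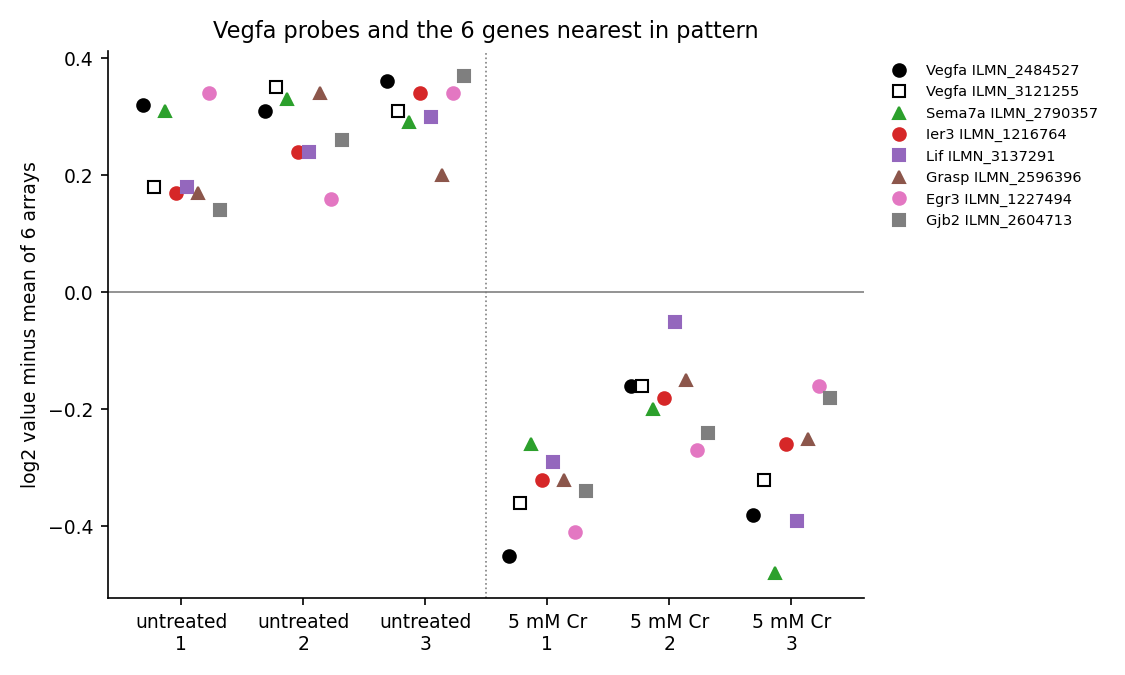
Log2 value of each array minus the mean of the 6 arrays, for both Vegfa probes (black, filled for ILMN_2484527 and open for ILMN_3121255) and for the probe of each of the 6 genes nearest to it in pattern. The 3 untreated arrays of every probe lie above 0 and the 3 Cr arrays below it, and Lif comes closest to 0, at -0.05 on Cr replicate 2.

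In 6 lists of genes linked to Vegfa by signalling, regulation or an angiogenic role, no gene passed the test. Over all 10585 named genes, each taken by its brightest probe, 4 were called lower and 1 higher, and the median log2 fold change was 0.003. Of 14 further family members and neuropilin partners, 8 were measured, none passed, and the median was -0.008. Among them Sema3e, a class 3 semaphorin, had -0.12 (standard error 0.09), and Sema3c, another one, had -0.15 on a probe detected on 3 arrays. Of 36 genes that relay the signal of VEGF receptors, 25 were measured, none passed, and the median was -0.017. Values of lowest p in that list were those of Pik3r1, a regulatory subunit of PI 3-kinase, at 0.28 (standard error 0.09; adjusted p = 0.716, limma), and of the docking protein gene Gab1 at 0.27 (limma, adjusted p = 0.786). On both genes the groups did not overlap after normalization. Pik3r1 signals were 563.6, 580.6 and 457 in untreated controls and 640.9, 674.5 and 616.4 with Cr.

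Of 18 regulators of Vegfa transcription 14 were measured, all of them on every array, and none passed. Their median was 0.013, with 7 below 0 and 7 above. The transcription factor genes Stat3 and Arnt had log2 fold changes of -0.19 (standard error 0.09) and -0.26 (standard error 0.15), both with groups that overlap, and that of Arnt lay between -0.44 and -0.10 when single arrays were left out. Hif1a, the oxygen-regulated factor for which Vegfa is a classic target, had 0.03 (standard error 0.08), a gene named after its value had been seen. Of 31 other targets of the hypoxia-inducible factors 23 were measured, none passed, and the median was -0.004, with 12 below 0 and 11 above. The endothelin gene Edn1 had 0.26 (limma, adjusted p = 0.761) and the clock-linked repressor gene Bhlhe40 had -0.23 (limma, adjusted p = 0.948). These 2 targets of lowest p differed in sign. Those next in p, named after their values had been seen, were Ndrg1 at -0.24, Slc2a1 at -0.18, Ldha at -0.12 and Hk1 at 0.14. After these, named likewise, came Car9, detected on no Cr array so that no fold is given, Pfkfb4 at 0.13, Higd1a at 0.15 and Mxi1 at -0.09. Adjusted p of these further genes lay between 0.956 and 0.986 (limma), and no common direction is read from them.

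Of 22 other angiogenic factors and inhibitors 19 were measured, and none passed. Their median was -0.031, with 10 below 0 and 9 above, and it was 0.01 with neqc and between -0.05 and 0.05 when single arrays were left out. The lowest p was that of Hbegf, a ligand of the EGF receptor, with signals of 7901, 8051 and 7055 in untreated controls and 5565, 6310 and 6330 with Cr. Every Cr array of Hbegf was below every untreated array, and its log2 fold change was -0.38 (limma, adjusted p = 0.293). Cxcl12, a chemokine for vessel and blood stem cells, had 0.23 (limma, adjusted p = 0.915). Of 13 proteins that bind or splice Vegfa mRNA 12 were measured, none passed, and the median was -0.006. Zfp36, which speeds the decay of mRNAs with AU-rich elements, had -0.18 (limma, adjusted p = 0.962), and its relative Zfp36l2 had -0.14 (limma, adjusted p = 0.986).
The marker lists gave medians of 0.026 for fibroblasts, 0.089 for endothelial cells, -0.005 for macrophages and 0.075 for epithelial cells, with no gene past the threshold. Members of lowest p that were detected in both groups were, besides Eng at 0.19, Pdgfra at 0.20, Col3a1 at -0.19, Cd14 at -0.16, Mrc1 at 0.04 and Krt19 at 0.07, and the epithelial Cdh1 was detected on 1 Cr array only.

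**Figure D4:**
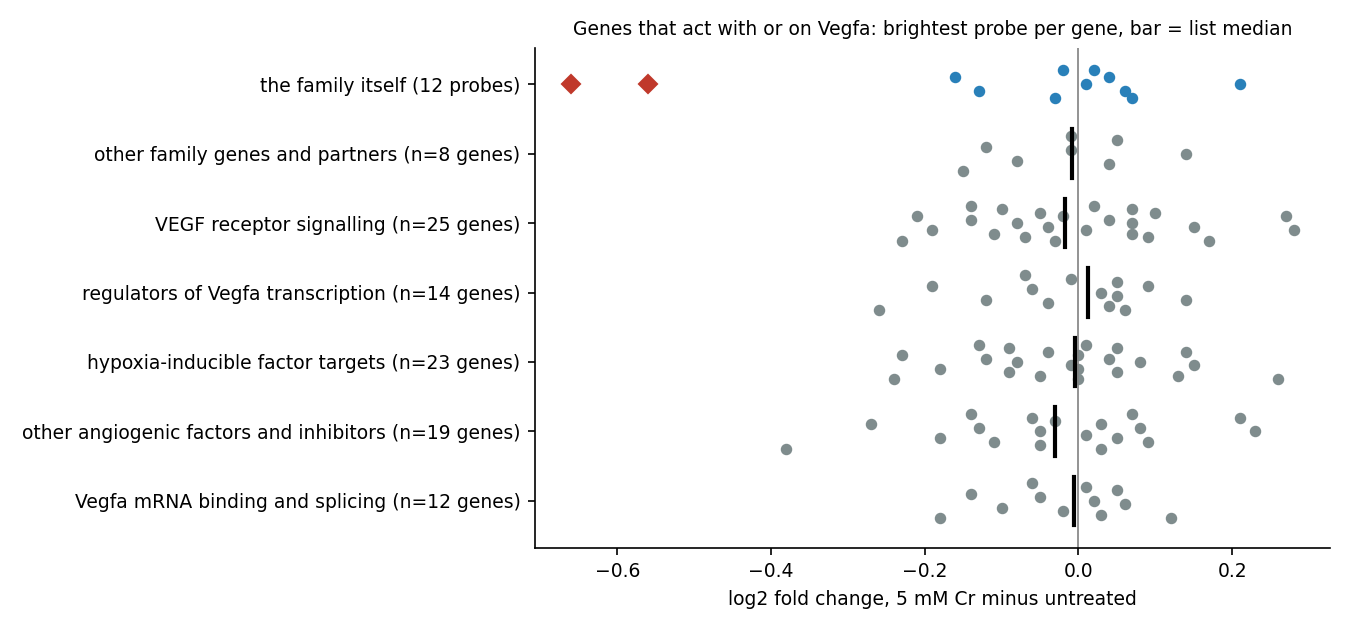
Log2 fold change (5 mM Cr minus untreated) of each measured gene, by its brightest probe, in 6 lists. The lists hold genes linked to Vegfa by signalling, regulation or an angiogenic role. Bars are list medians, and the 12 probes of the family stand above the lists (Vegfa as red diamonds, the other members in blue). The medians lie between -0.031 and 0.013, and the lowest value in any list is that of Hbegf, -0.38.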

How the data were processed

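Total RNA of 6 samples was labelled as cRNA and hybridized to Illumina mouse BeadChips, 1 array per sample. For each probe the authors deposited a signal intensity exported from the scanner software without background subtraction, and the deposited detection p-value ranks it against negative control probes. The authors also deposited log2 values, corrected for background from negative controls and normalized with vsn, for probes that passed their detection filter. No columns of other samples were present.

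From the signals, without prior background subtraction, the vsn model was written out and fitted in R 4.3.3 (asinh, with an offset and a scale for every array, trimmed to a quantile of 0.9 over 7 rounds). The limma 3.58.1 test covered probes detected (p no higher than 0.05) on 1 or more arrays and used all 6 arrays, two-sided, without covariates, with Benjamini-Hochberg adjustment over all tested probes and a threshold of 0.05. The fit was tested on arrays simulated from the same model with a common spread for all probes. That does not test whether the model or such a spread holds for these data. Symbols came from the platform annotation, which gave 1 symbol for 16925 tested probes, several for 7 and none for 3376, and were compared through Entrez IDs with RefSeq (GRCm38.p6), which changed 0 of them and lacked 20 IDs. The array's genome build is not given in the sources used here, so probe positions are not stated.

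The members and gene lists were chosen with earlier results of these data known. The text names every member probe, the 6 genes nearest to Vegfa in pattern and, in each list, the 2 genes of lowest p on their brightest probe, with other genes marked as named after their values were seen. Alternatives were other background corrections and normalizations (neqc with an offset of 16, the deposited values, quantile, normexp with an offset of 50), other filters, weights for arrays, another variance model, replicate number as block, and each array left out. Precision is limited by 3 arrays per group. Figures were drawn with matplotlib 3.10.9.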

Additional observations from a re-analysis of the deposited data

How the results depend on the processing

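The 2 Vegfa probes were called in limma with the deposited values, quantile normalization, no filter on dim probes, detection on all 6 arrays, a trended robust variance, array weights or an adjusted p of 0.10. No member probe was called with neqc (0) or with normexp and median scaling (0), although 3 had an unadjusted p of 0.05 or less in both, and between 0 and 2 were called when each array was left out, with 2 or 3 at that unadjusted p. Untreated replicate 1 could be left out with no loss, 1 call was lost with Cr replicate 2, and 0 calls were left when any of the other arrays was dropped. The cause was not tested. Over all probes 6 were called, and the number was 12 with the deposited values, 12 with quantile normalization, 10 without a filter, 13 with a trended variance, 15 with array weights, 0 with neqc (1145 at an unadjusted p of 0.05 or less in limma), 0 with normexp (1017), and 0 to 9 with each array left out (762 to 1493). With the replicate number as a block 14 probes were called, and the same 2 member probes with it. Deviations of same-numbered arrays correlated at 0.24, 0.312 and -0.031 across probes. Arrays of replicates 1 and 2 correlated best with their own number, and those of replicate 3 did not. Whether the same number means a shared plate or day is not stated, so the numbers were not taken as pairs.

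Values near 0 changed sign. With normexp and median scaling, Vegfb had 0.045 and Nrp1 probe ILMN_1237197 had 0.06. The median log2 fold change of all tested probes was 0.048 in that fit and 0.001 in the main fit. With each array left out, Vegfb lay between -0.101 and 0.019, that Nrp1 probe between -0.102 and 0.043, Nrp2 probe ILMN_1216066 between -0.018 and 0.032, Nrp2 probe ILMN_2766737 between -0.057 and 0.08, and Krt19 between -0.005 and 0.124. Over 15 alternative fits the log2 fold changes of the Vegfa probes were -0.74 to -0.58 and -0.62 to -0.50. That of Flt1 was 0.15 to 0.51 over the 14 fits that tested it. As the groups did not overlap on these probes, leaving out 1 array could not reverse the signs. Fits that changed only the filter, the variance model or the block left the estimate as it was, so these are not separate checks. Signals near background limit Flt1, Kdr and Nrp2.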
